A study of Mus musculus with 13 samples.

Results

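The genes described here build cholesterol and fatty acids in mouse back skin. They were chosen by name: 16 enzymes of the cholesterol pathway from Hmgcs1 to Dhcr7, 5 regulators of both pathways around the SREBP transcription factors, and 11 enzymes that supply acetyl-CoA or NADPH for fatty acids, build them or desaturate them. Each gene was read from a probe whose annotation names that gene alone, and where a gene had several such probes the one with the highest mean was used. A probe was found for all 32 genes, and all 32 were among the 16322 genes whose mean passed the filter on dim probes, out of 19938 genes with such a probe. The skin came from male C57Bl6 mice of postnatal day 30, with hair follicles in anagen, the growth phase, that ate chow freely while lights were on for 12 h and off for 12 h. All mice shared this strain, age and feeding, and no genotype or treatment was compared. Each of 13 arrays measured RNA pooled from 3 mice, and pools of different mice were taken at 4 h steps, the first at ZT2 and the last at ZT50. ZT gives the hours since the lights first came on. There were 7 light pools and 6 dark pools. Pooling averages 3 mice within each pool, and differences between mice remain between pools.

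Cholesterol is built from acetyl-CoA through mevalonate, isoprenoid units, squalene and lanosterol. Fatty acids are built from the same acetyl-CoA by acetyl-CoA carboxylase and fatty acid synthase, and are then desaturated and elongated. SREBP proteins, the products of Srebf1 and Srebf2, are held in the endoplasmic reticulum by Scap and the Insig proteins when sterols are plentiful, and otherwise move to the Golgi, are cleaved and switch on these enzymes. In skin the sebaceous glands secrete lipid, the epidermis needs cholesterol and fatty acids for its barrier, and the dermal fat layer grows in anagen. Mice feed mainly in the dark, and in liver the fatty acid pathway is known to follow feeding.

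The median intensity of an array was 439.98 at the lowest and 483.2 at the highest, and pools correlated at 0.978 to 0.996 over the genes tested. Markers of the labelled tissue were present, with 7 of 7 listed basal epidermis genes, 7 of 8 differentiated epidermis genes and 9 of 10 hair genes past the filter. The ZT46 pool stood apart in hepatocyte genes, whose summed intensity was 38749 there and at most 13922 in the other 12 pools. The summed intensity of 14 skeletal muscle genes ranged from 39533 at ZT2 to 80671 at ZT42. The number of arrays limits the precision of every value.

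The promoters of these genes were searched for the letters that SREBP proteins and their usual partners are known to bind, and 3 windows are printed because they belong to an early cholesterol enzyme, a sterol-dependent regulator and the gene with the largest difference between dark and light. RefSeq promoter windows (GRCm38.p6) run from 250 bases before a gene's start to 50 after it, and 26 of the 32 genes had 35 windows. On both strands, CCAAT, the box bound by NF-Y, stood in 23 of the 35 windows (65.7%) and in 37.4% of all 32851 windows. It stood in windows of 13 of 13 cholesterol enzymes with a window and of 5 of 8 fatty acid enzymes. The GC box GGGCGG, bound by Sp1, stood in 25 windows (71.4%) beside 35.7% of all windows. The sterol element in its looser form TCACNCCA stood in 4 windows (11.4%, of Hmgcs1, Msmo1, Srebf2 and Scd3) beside 4.36% of all. Its full form TCACCCCAC stood in 1 window, that of Hmgcs1, beside 0.551% of all, and each such match is also a match to the looser form. The E box CACGTG stood in 6 windows (17.1%, of Hsd17b7, Insig1, Dhcr7, Sc5d and Scap) beside 7.15% of all. The Scap windows overlap on the chromosome, and the same E box and the same GC box are counted in both. These matches are letters in a sequence, and binding was not measured. In the sequences below capitals mark CCAAT or its reverse complement ATTGG in all 3, the full sterol element in Hmgcs1, whose first base lies at -137 from the start, and the E box in Insig1, at -101. In Fasn a pair of CCAAT matches on opposite strands overlap, at -62 and -59. Windows lie at chr13:119690101-119690400 on the plus strand for Hmgcs1, chr5:28071162-28071461 on the plus strand for Insig1 and chr11:120824498-120824797 on the minus strand for Fasn, each written 5′ to 3′ along its gene.
Hmgcs1: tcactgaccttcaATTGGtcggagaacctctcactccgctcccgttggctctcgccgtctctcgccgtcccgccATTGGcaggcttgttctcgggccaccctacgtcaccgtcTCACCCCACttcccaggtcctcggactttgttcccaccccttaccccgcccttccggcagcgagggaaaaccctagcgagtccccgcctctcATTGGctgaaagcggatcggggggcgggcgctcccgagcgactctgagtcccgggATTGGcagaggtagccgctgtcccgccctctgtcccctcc
Insig1: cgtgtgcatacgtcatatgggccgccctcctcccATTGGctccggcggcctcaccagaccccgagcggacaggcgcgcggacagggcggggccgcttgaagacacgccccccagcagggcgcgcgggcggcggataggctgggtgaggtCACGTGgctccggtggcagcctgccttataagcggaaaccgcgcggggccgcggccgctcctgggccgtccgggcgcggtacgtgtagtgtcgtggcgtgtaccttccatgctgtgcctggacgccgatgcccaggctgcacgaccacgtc
Fasn: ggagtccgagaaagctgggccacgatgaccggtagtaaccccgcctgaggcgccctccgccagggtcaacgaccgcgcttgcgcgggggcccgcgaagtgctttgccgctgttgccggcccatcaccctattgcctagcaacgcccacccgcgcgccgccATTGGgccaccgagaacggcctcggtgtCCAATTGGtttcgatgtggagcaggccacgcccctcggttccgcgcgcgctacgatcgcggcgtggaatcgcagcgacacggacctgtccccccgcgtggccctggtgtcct

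Across the 13 pools 16 of the 32 genes had an SD above the middle of genes of like mean level, 10 of the 11 fatty acid enzymes, 6 of the 16 cholesterol enzymes and 0 of the 5 regulators. The highest pool exceeded the lowest by 1.13-fold for Ebp, which moves a sterol double bond, and by 1.65-fold for Acss2, which makes acetyl-CoA from acetate, with the other 30 genes in between. On the scale used for all tests, log2(intensity + 16), on which a fold of a dim gene is understated, the median SD over the pools was 0.079 for the cholesterol enzymes, 0.067 for the regulators and 0.10 for the fatty acid enzymes, and 0.11 for all genes tested. Against genes of like mean level (within the same 10 percent of ranks), the median percentile of the SD was 39.7 for the cholesterol enzymes, 27.7 for the regulators and 68.2 for the fatty acid enzymes. Acss2 (96.3), Hsd17b7 (94.7), Scd3 (94.4) and Acacb (92.2) were above the 90th percentile of their level, and Ebp was lowest at 3.12. In the map of centred levels the fatty acid genes were highest on average at ZT14 (0.18 above their mean). The cholesterol enzymes were highest at ZT22 (0.089) and lowest at ZT42 (-0.092).

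**Figure D1:**
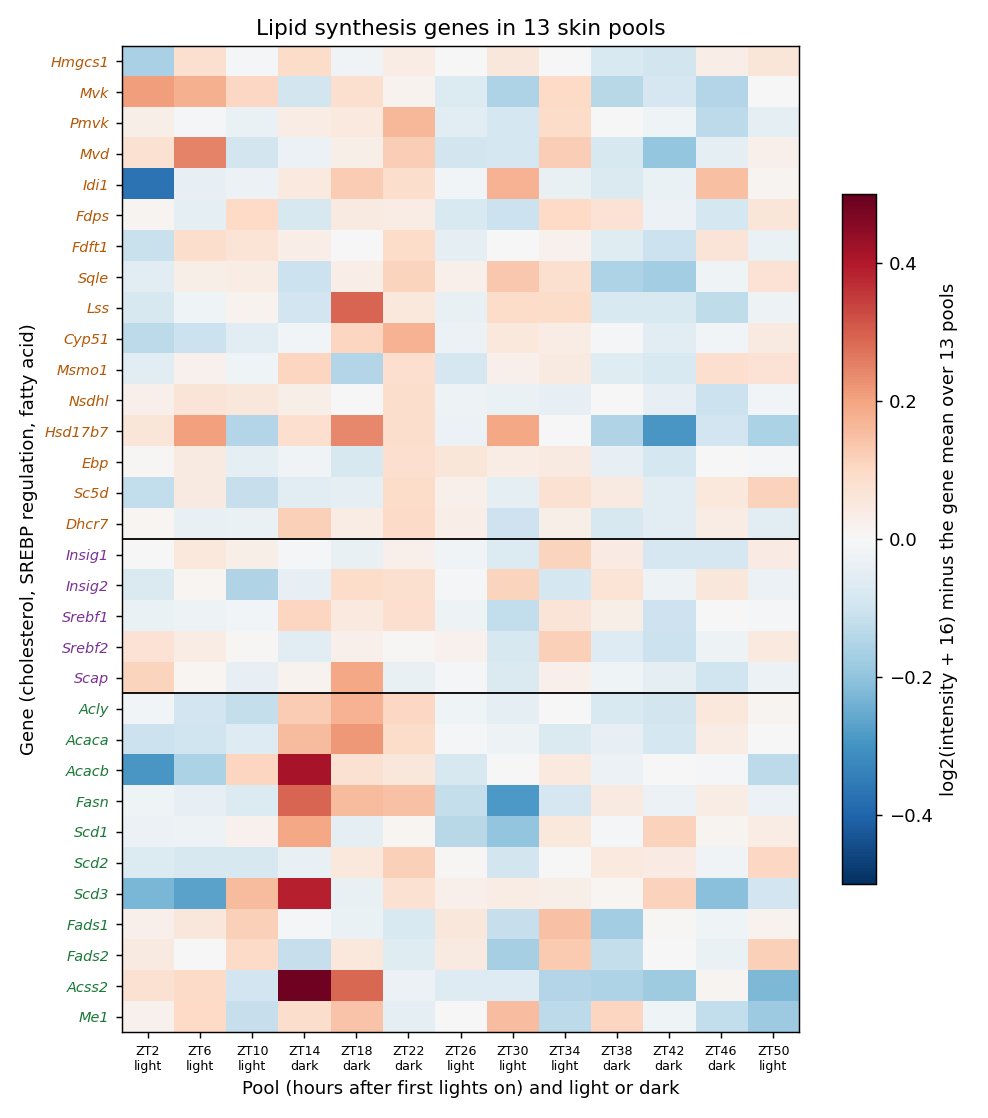
Level of each of the 32 genes (rows) in each of the 13 pools (columns), as log2(intensity + 16) minus the gene's mean, with red above and blue below the mean and lines between the cholesterol, regulator and fatty acid genes. Acss2, Acacb, Scd3 and Fasn have their highest pool at ZT14.

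Among the enzymes of the mevalonate part, Hmgcs1, which makes HMG-CoA, had a lowest, median and highest intensity of 3412, 3819 and 4037 in the light and 3574, 3837 and 4061 in the dark. The groups overlapped almost fully, and both the ZT2 and the ZT42 pool were low. Dark minus light was -0.013 log2 (95% interval -0.12 to 0.094). Mvk, mevalonate kinase, was at 1902, 2268 and 2452 in the light and 1915, 1992 and 2237 in the dark, with its highest levels at ZT2 and ZT6. Idi1, which isomerises isopentenyl diphosphate, stood at 1544, 1959 and 2255 in the light and 1897, 2094 and 2218 in the dark. Its ZT2 pool was below all others and its highest pool, ZT30, was also a light pool. A second Idi1 probe followed the first closely (r = 0.974 over 13 pools). Pmvk, Mvd and Fdps, the kinase, decarboxylase and prenyl synthase of this part, had highest over lowest ratios of 1.24, 1.36 and 1.16.

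In the sterol part, Sqle, the squalene epoxidase that is a rate-limiting step, was at 2537, 2711 and 2900 (lowest, median, highest) in the light and 2338, 2527 and 2852 in the dark. Its lowest pools were ZT38 and ZT42 of the second night, yet ZT22 of the first night was above all pools but ZT30. Dark minus light was -0.10 log2 (-0.22 to 0.016), the largest difference in size among the cholesterol enzymes (limma, adjusted p = 0.443). Hsd17b7, a sterol ketoreductase, ranged from 1977 at ZT42 to 2865 at ZT18, and Lss, which closes the sterol rings, reached 2495 at ZT18 with at most 2174 in the other pools. Fdft1, Cyp51, Msmo1, Nsdhl, Ebp, Sc5d and Dhcr7, which make squalene and trim lanosterol to cholesterol, had highest over lowest ratios of 1.13 to 1.24. Of the 16 cholesterol enzymes, 7 had a dark minus light value above 0 with values as deposited, 4 with each array centred on its median and 8 after quantile normalization. The median was -0.006 log2 as deposited, beside 0.012 for all genes tested.

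The regulators moved less than most genes of their level. Srebf1, whose product favours fatty acid enzymes, was at 1426, 1525 and 1623 in the light and 1443, 1595 and 1672 in the dark, and dark minus light was 0.059 log2 (-0.037 to 0.15). Srebf2, whose product favours cholesterol enzymes, was at 3554, 3861 and 4083 in the light and 3487, 3654 and 3827 in the dark, with a difference of -0.065 log2 (-0.16 to 0.026). Both genes had overlapping groups and intervals that include 0. Insig1, a sterol-dependent retainer of SREBP and itself an SREBP target, was at 4996, 5352 and 5664 in the light and 4937, 5152 and 5383 in the dark. Insig2, its relative, was at 3436, 3733 and 4125 in the light and 3705, 3982 and 4070 in the dark. Scap, the SREBP escort, ranged from 2622 at ZT46 to 3212 at ZT18. For none of the 5 did dark and light pools separate, and the largest dark minus light value in size was that of Insig2, 0.065 (-0.038 to 0.17), with Srebf2 at nearly the same size in the other direction.

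Among the fatty acid enzymes, Fasn, the synthase that builds palmitate, had the largest difference between dark and light. Its intensity at ZT2, ZT6 and ZT10 was 6566, 6468 and 6351. In the first night, at ZT14, ZT18 and ZT22, it was 8164, 7443 and 7374. On the second day, at ZT26, ZT30 and ZT34, it was 6138, 5458 and 6281, in the second night, at ZT38, ZT42 and ZT46, 6868, 6537 and 6843, and at ZT50 it was 6532. In these values as deposited, all dark pools but ZT42 were above every light pool, and ZT42 was above all light pools but ZT2. This order depends on scaling. The array median was 440 at ZT2, the lowest of all, and with arrays centred on it ZT38, ZT42 and ZT46 fell below ZT2. The pools of the first night stayed above every light pool. The light pools averaged 6256 ± 382 (SD, n = 7) and the dark pools 7205 ± 582 (SD, n = 6). Dark minus light was 0.23 log2 (95% interval 0.11 to 0.34), with 0.18 after centring and 0.24 after quantile normalization. Over all genes tested this did not pass the limma test (adjusted p = 0.315, range over alternatives 0.121 to 0.543).

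**Figure D2:**
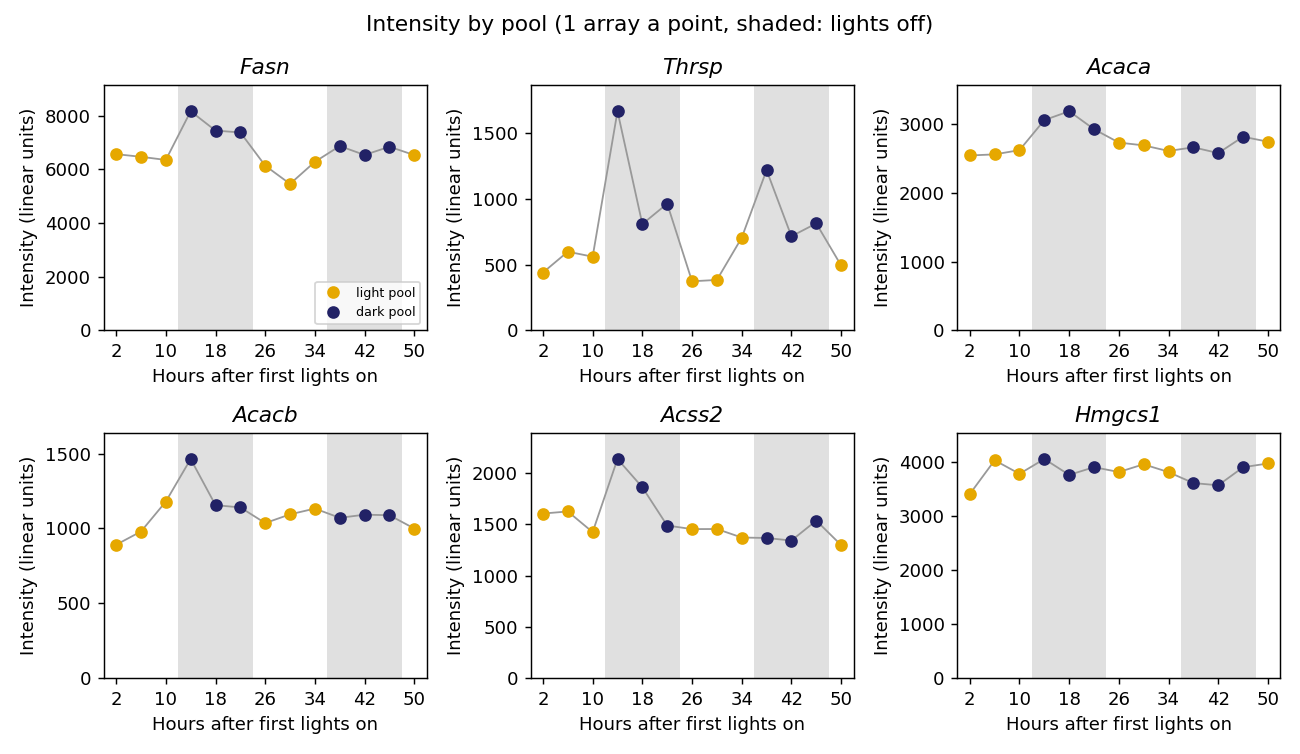
Intensity in linear units against hours after the first lights on for 5 of the genes and for Thrsp, with 1 array a point, light pools in yellow, dark pools in blue and the hours of darkness shaded. In these intensities as deposited, Fasn and Thrsp have dark pools above the same day's light pools in both nights. Acaca, Acacb and Acss2 have their highest pools in the first night, and Hmgcs1 is level.

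The carboxylases feed malonyl-CoA to Fasn. Acaca, the form linked to synthesis, was at 2540, 2618 and 2740 (lowest, median, highest) in the light and 2575, 2867 and 3182 in the dark. The first night held its 3 highest pools and 2 of the second night's pools lay among the light pools. Dark minus light was 0.12 log2 (0.011 to 0.24, limma adjusted p = 0.377), and 0.080 with arrays centred on their median. A second Acaca probe gave 0.18. Acacb, the form linked to control of fat burning, was at 891, 1036 and 1180 in the light and 1071, 1116 and 1464 in the dark. Its ZT14 pool stood far above the rest and its ZT2 pool lowest. The difference was 0.17 log2 (-0.0045 to 0.34). Acly, which makes cytosolic acetyl-CoA from citrate, ranged from 2848 at ZT10 to 3494 at ZT18, with a difference of 0.096 log2 (-0.015 to 0.21).

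Acss2 was at 1299, 1454 and 1626 in the light and 1343, 1513 and 2138 in the dark. Its ZT14 and ZT18 pools were the highest and the later dark pools lay among the light ones. The difference was 0.20 log2 (0.039 to 0.36, limma adjusted p = 0.362), and 0.12 without ZT14. It was 0.090 with the day number in place of hours as the linear term, and 0.13 with no time term. With the mean of sebaceous gland markers as a covariate it was 0.13. Me1, the malic enzyme that supplies NADPH, had a difference of 0.074 log2 (-0.053 to 0.20), with 0.11 for a second probe.

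The fitted dark minus light values of Scd1, Scd2 and Scd3 were above 0 and those of Fads1 and Fads2 below 0. Each interval included 0. In the second 24 h alone Scd3 was below 0 too, at -0.060, beside 0.14 for Scd1 and 0.053 for Scd2. Scd1, the main stearoyl-CoA desaturase of sebaceous glands, was at 11595, 13065 and 13769 in the light and 12861, 13390 and 15172 in the dark. Scd2 was at 8867, 9019 and 10156 in the light and 9221, 9760 and 10264 in the dark. Scd3 was at 3128, 3834 and 4199 in the light and 3254, 3879 and 4932 in the dark. The 3 genes are near copies, so their probes may share signal, and all 3 had overlapping groups. Dark minus light was 0.088 (-0.032 to 0.21), 0.050 (-0.042 to 0.14) and 0.11 (-0.085 to 0.31). Fads1 and Fads2, the desaturases of polyunsaturated fatty acids, had values below 0, at -0.089 (-0.20 to 0.017) and -0.089 (-0.20 to 0.027). They were the only 2 of the 11 fatty acid enzymes below 0, with values as deposited, centred or quantile normalized.

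In the dark against light comparison, 0 of the 32 genes passed an adjusted p of 0.05 in limma, beside 1 of the 16322 genes tested (0.00613%). At an unadjusted p under 0.05 there were 3 of 32, Fasn, Acaca and Acss2, all higher in the dark, which is 9.38% beside 12.4% of all genes tested. So the count of the 32 genes was not above the background with values as deposited. It was 4 with arrays centred on their median and 5 after quantile normalization, where the share of all genes was not counted. As deposited all 3 were fatty acid enzymes (27.3% of 11), with 0 of 16 cholesterol enzymes and 0 of 5 regulators. Values above 0 were found for 19 of 32 genes, beside 55.6% of all genes. That background depends on scaling: it was 37.4% with arrays centred on their median and 49.0% after quantile normalization, and the 32 genes then gave 15 and 20. The fatty acid enzymes gave 9 of 11 under all 3 scalings, with a median of 0.096 log2 as deposited, 0.052 after centring and 0.11 after quantile normalization. Dark and light pools did not overlap for 0 of the 32 genes and for 0.276% of all genes.

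**Figure D3:**
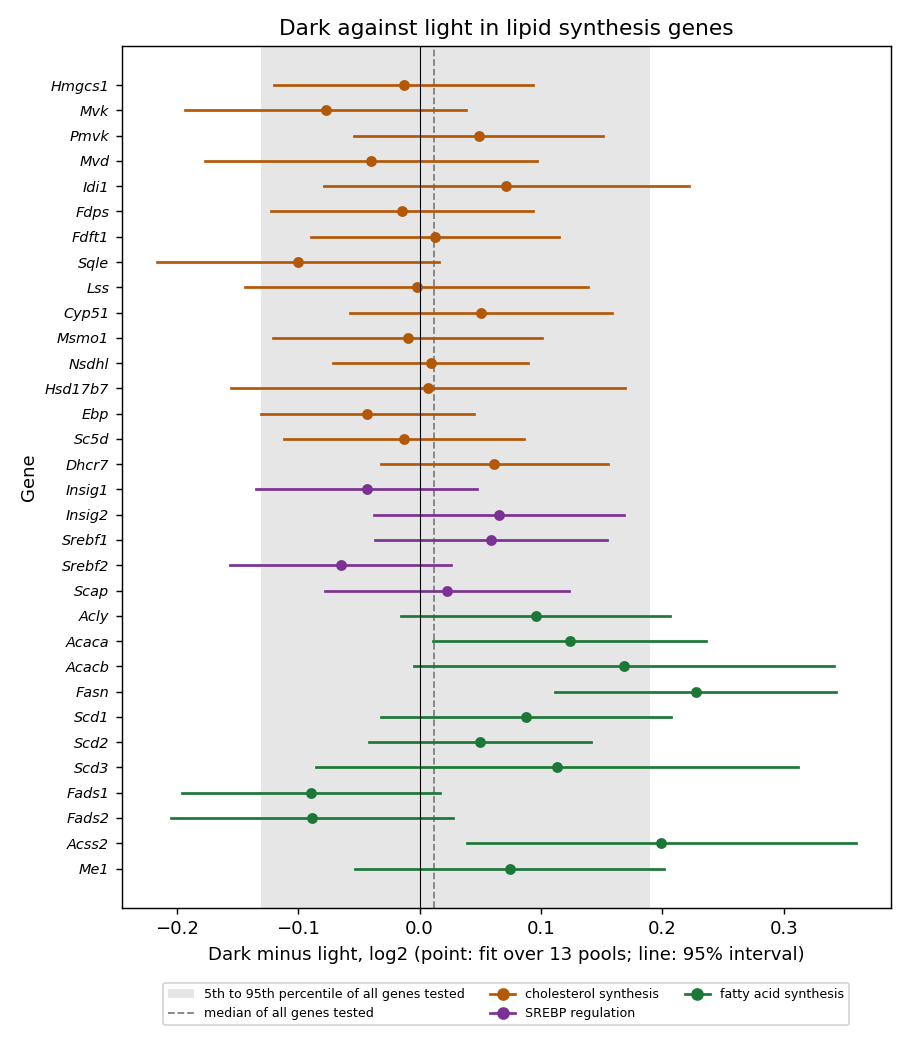
Dark minus light for each gene on the log2 scale, with the fitted value over 13 pools as a point and its 95% interval as a line, coloured by role, over a grey band from the 5th to the 95th percentile of all genes tested. Fasn (0.23) and Acss2 (0.20) lie beyond the band on the right.

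The nights were then compared with the days around them, a step chosen after the data were seen. In the first 24 h the 3 dark pools were all above the 3 light pools for 9 of the 32 genes, Pmvk, Idi1, Cyp51, Dhcr7, Srebf1, Acly, Acaca, Fasn and Scd2, beside 6.37% of all genes. In the second 24 h this held for 1, Fasn, beside 22.1% of all genes, and it held on both days for Fasn alone among the 32 and for 0.337% of all genes. These orders are of values as deposited. The array median was 443 at ZT34 and 471 at ZT42, and with arrays centred on it Fasn at ZT42 fell below ZT34. Dark minus light of Fasn was 0.24 log2 in the first 24 h and 0.18 in the second (0.10 in the latter with arrays centred on their median). Acaca gave 0.25 and 0.004, Acly 0.21 and -0.015, Acacb 0.30 and -0.004, Acss2 0.22 and -0.013, Idi1 0.23 and -0.027, and Cyp51, the lanosterol demethylase, 0.19 and -0.043. The median of the 11 fatty acid enzymes was 0.21 in the first 24 h and -0.013 in the second, when it was -0.093 after centring and 0.032 after quantile normalization, and the number above 0 was 9 in the first 24 h and, in that order of scalings, 4, 2 or 8 in the second. For 0 of the 32 genes did the difference between days pass the limma interaction test (smallest adjusted p = 0.0881, Acaca), beside 5.65% of all genes, and 4 of 32, Acaca, Acly, Cyp51 and Hsd17b7, had an unadjusted p under 0.05, beside 27.1% of all genes.

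The 24 h wave, fitted as cosine and sine terms with linear time, was called by limma for 0 of the 32 genes and for 23 of all genes (0.141%). At an unadjusted p under 0.05 there were 2 of 32 (6.25%), Fasn and Acacb, beside 9.54% of all genes. Fasn had an amplitude, the height of the wave, of 0.16 ± 0.042 log2 (SE), a peak-to-trough fold of 1.25 and a fitted peak at 18.0 h (limma, adjusted p = 0.404). Acacb had 0.15 ± 0.048 and a fitted peak at 14.6 h (adjusted p = 0.484). The Acacb amplitude was 0.098 without ZT14 and 0.051 with the mean of sebaceous gland markers as a covariate. The median amplitude was 0.033 log2 for the cholesterol enzymes, 0.041 for the regulators and 0.082 for the fatty acid enzymes, beside 0.061 for all genes. The upper 95% bound of the amplitude had a median of 0.12 log2 over the cholesterol enzymes and 0.17 over the fatty acid enzymes.

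Linear drift over the 48 h passed the limma test for 0 of 32 genes and 0% of all genes. At an unadjusted p under 0.05 there were 3 of 32, Acss2, Mvk and Hsd17b7, all downward, which is 9.38% beside 8.8% of all genes. Their slopes per day were -0.21 log2 (-0.36 to -0.070) for Acss2, -0.12 (-0.23 to -0.021) for Mvk and -0.15 (-0.28 to -0.0094) for Hsd17b7, with limma adjusted p = 0.378, 0.488 and 0.544. Slopes were below 0 for 21 of 32 genes, beside 56.5% of all genes, and for 25 after centring and 20 after quantile normalization, beside 63.4% and 59.7%.

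Other genes of the same pathways, from lists made for this description, came to 20 of fatty acid supply and use, 10 of SREBP processing and sensing, 10 of sterol uptake and export and 6 more of sterol synthesis. None of them passed the wave, drift or dark against light test. Thrsp, a nuclear protein known to promote lipid synthesis, had the lowest adjusted p among them for the wave and for dark against light. Its 7 light pools had a lowest, median and highest intensity of 374, 494 and 704, and its 6 dark pools 715, 888 and 1665. As deposited the groups did not overlap, as for 0.276% of all genes. The array median was 443 at ZT34 and 471 at ZT42, and with arrays centred on it Thrsp at ZT42 fell below ZT34. Dark minus light was 1.02 log2 (0.61 to 1.42, limma adjusted p = 0.186, range over alternatives 0.0603 to 0.508). The first and second days gave 1.02 and 0.91, and the fitted wave had an amplitude of 0.69 ± 0.13 log2 with a peak at 16 h (limma, adjusted p = 0.206). With the mean of sebaceous gland markers as a covariate the difference was 0.64 and the amplitude 0.44. Among the 20 genes of fatty acid supply and use, 16 were above 0 in the dark against light fit as deposited, beside 55.6% of all genes. After centring 37.4% of all genes were above 0, and the count of these 20 was not made. In the linear drift fit as deposited, 18 of the 20 had slopes below 0, beside 56.5% of all genes. There 7 of the 20 had an unadjusted limma p under 0.05, all downward, beside 8.8% of all genes in either direction. In the dark against light fit 6 of the 20 were above 0 at an unadjusted p under 0.05, beside 12.4% of all genes in either direction. Elovl4, which makes very long chain fatty acids for the barrier, had 0.17 log2 (0.069 to 0.28, limma adjusted p = 0.324). Mlxipl, the carbohydrate-sensing factor that also drives lipogenic genes, had a wave amplitude of 0.20 ± 0.043 log2 with a fitted peak at 13.3 h (limma, adjusted p = 0.283), and 0.11 with muscle and adipocyte means as covariates. Tmem97, a sterol-responsive membrane protein of the same list of 10 genes, had 0.099 ± 0.042. Of the 10 genes of sterol uptake and export, all 10 were below 0 in that fit as deposited, where 55.6% of all genes were above 0. They were not counted after centring, where 37.4% of all genes were above 0. At an unadjusted p under 0.05 there were 0 of these 10, beside 12.4% of all genes, with Mylip at -0.078 (-0.18 to 0.023) and Npc2 at -0.063 (-0.16 to 0.032). The 6 other sterol synthesis genes split 3 to 3, and Lbr and Nus1, with the smallest wave p among them, had amplitudes of 0.11 ± 0.074 and 0.065 ± 0.047 log2.

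Covariation over the 13 pools was modest. The median Pearson r was 0.28 over the 120 pairs of cholesterol enzymes, 0.23 over the 10 pairs of regulators, 0.18 over the 55 pairs of fatty acid enzymes, 0.072 over the 176 pairs across these branches and 0.0087 over pairs of every 8th gene tested. Without ZT14 the median over the fatty acid pairs was 0.074, and without ZT22 that over the cholesterol pairs was 0.19. These r share the pools and their depth, so they describe the set only. Of 12 chosen pairs within these pathways, 4 passed a permutation test of Pearson's r, two-sided, after adjustment over the 12. The permutation treats the pools as exchangeable and takes no account of their order in time. Quartiles of r over pairs of every 8th gene tested were -0.26 and 0.30. Srebf1 and Fasn had r = 0.785 (permutation p = 0.0016, adjusted 0.0096) and rho = 0.643 (permutation p = 0.0206, adjusted 0.117), with r = 0.523 without the 2 pools farthest from the Srebf1 median. Their r was 0.950 over ZT2 to ZT22 and 0.556 over ZT26 to ZT46. Fads1 and Fads2 had r = 0.806 (permutation p = 0.00087, adjusted 0.0096) and rho = 0.747 (permutation p = 0.00491, adjusted 0.0589), with r = 0.723 without the 2 farthest pools, 0.591 over ZT2 to ZT22 and 0.956 over ZT26 to ZT46.

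Acly and Fasn had r = 0.693 (permutation p = 0.00788, adjusted 0.0238) and rho = 0.615 (permutation p = 0.0293, adjusted 0.117). Acaca and Fasn had r = 0.697 (permutation p = 0.00794, adjusted 0.0238) and rho = 0.516 (permutation p = 0.0732, adjusted 0.219). Both relations rest on the first night. Without ZT14 and ZT18 their r was 0.439 and 0.383, and over ZT26 to ZT46 it was 0.120 and 0.0829. Leaving out ZT14, ZT18 or ZT22 alone ended the call of both. By Spearman's rho none of the 12 pairs passed. The remaining 8 pairs had r of -0.429 to 0.510, Insig1 and Insig2 the lowest and Hmgcs1 and Sqle the highest. Srebf1 with Srebf2 had 0.345, with -0.807 over ZT2 to ZT22, 0.734 over ZT26 to ZT46, 0.145 without ZT42, 0.616 with arrays centred and 0.647 on residuals from the wave. Outside the 12 pairs the extremes were Acly with Acaca at 0.909 and Insig2 with Fads1 at -0.811, chosen by their values.

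**Figure D4:**
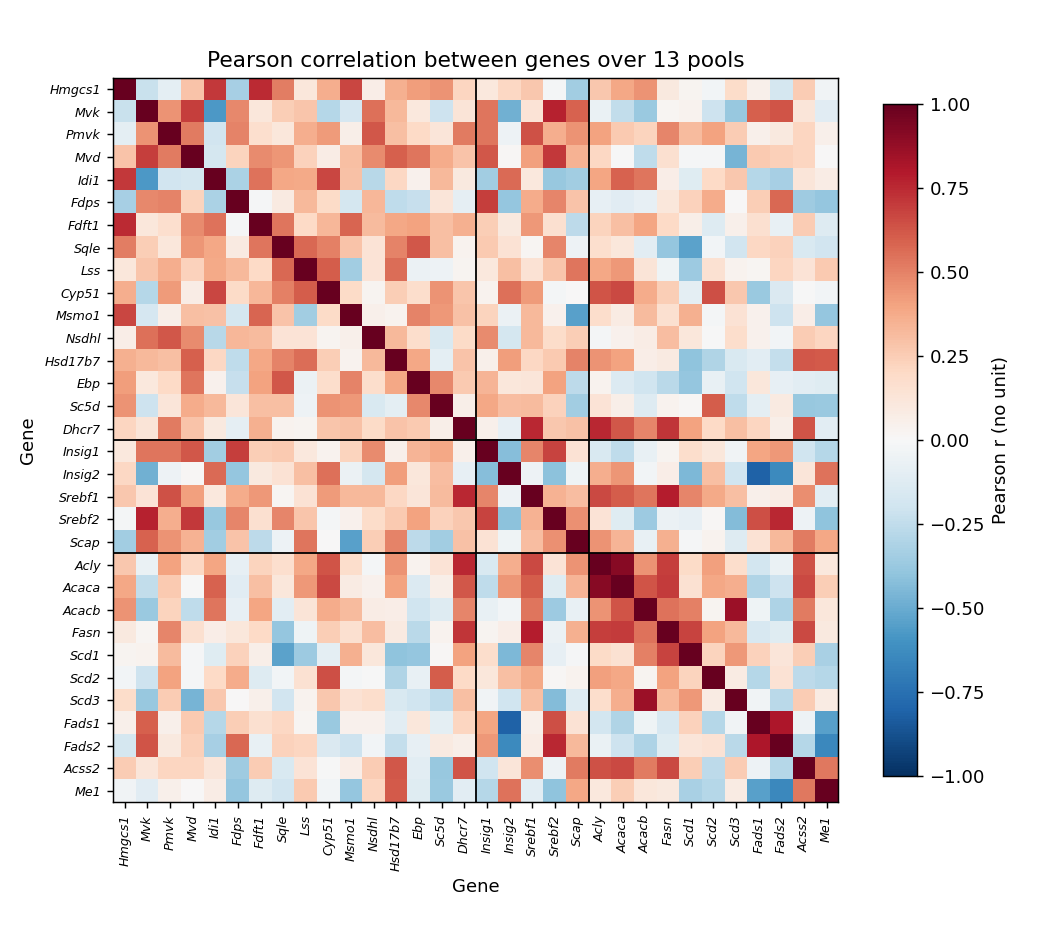
Pearson correlation between each pair of the 32 genes over the 13 pools, red above and blue below 0, with lines between cholesterol enzymes, regulators and fatty acid enzymes. Acly, Acaca, Acacb and Fasn form a red block, and Fads1 and Fads2 are red with each other and blue with Insig2 and Me1.

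Mean centred profiles of the branches were set beside those of marker lists, as descriptions over 13 pools that share libraries. The fatty acid profile had r = 0.813 with 13 sebaceous gland markers (15 listed, 13 past the filter, none at 0) and 0.595 without ZT14. The summed intensity of these markers was 39949 to 43240 in the light and 40283 to 45510 in the dark, highest at ZT14. It had r = 0.455 with 11 adipocyte markers, whose sum was 40051 to 47197 in the light and 41808 to 46954 in the dark, and -0.456 with 9 hair markers. It also had r = 0.628 with 7 basal epidermis markers and 0.562 with 7 differentiated epidermis markers, 0.395 and 0.312 without ZT14. Their sums were highest at ZT14 too, at 46863 and 60664, beside 42046 to 45786 and 52371 to 57699 in the light. With the sebaceous mean as a covariate the dark minus light value of Fasn was 0.18 and the median of the fatty acid enzymes 0.065, with 7 of 11 above 0. Fewer cells of a type and less RNA per cell cannot be told apart in whole skin. Without ZT46, the pool with high hepatocyte genes, Fasn gave 0.23. The cholesterol profile had r = 0.778 with the 10 genes of SREBP processing and sensing, 0.560 with basal epidermis markers, 0.380 with the sebaceous markers and 0.283 with the fatty acid profile.

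**Figure D5:**
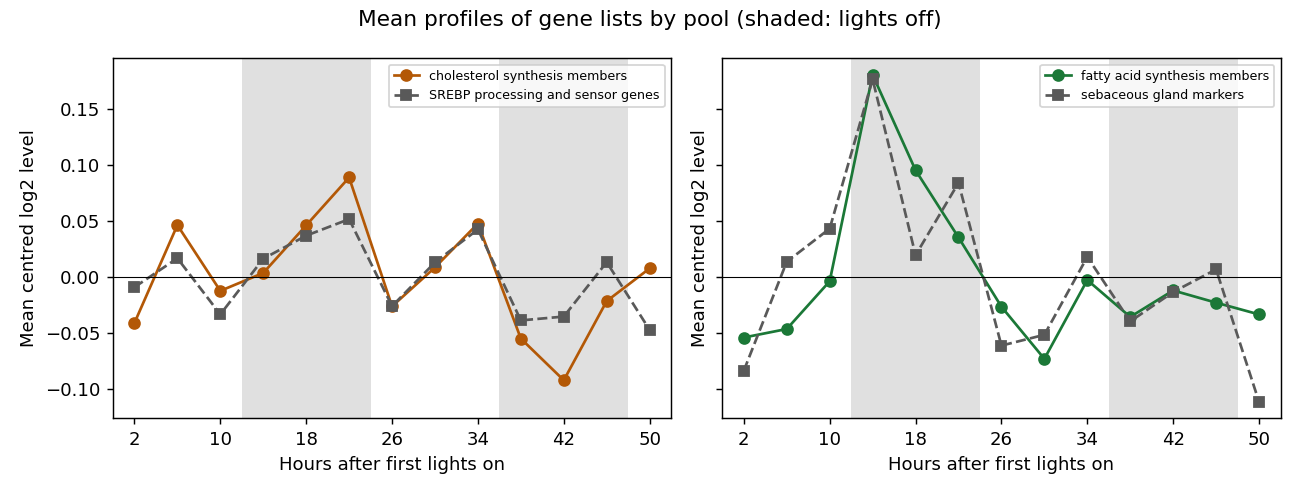
Mean centred log2 level against hours after the first lights on, with darkness shaded, for the cholesterol enzymes and the genes of SREBP processing and sensing (left) and the fatty acid enzymes and sebaceous gland markers (right). The right pair peaks together at ZT14, at 0.18 for both, and the left pair has the cholesterol enzymes between -0.092 and 0.089.

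The 10 genes most like the cholesterol profile over the 13 pools, by Pearson r, were Chst11 (0.896), Uimc1, Grwd1, Gmds, Mcoln3, Hectd4, Adam1a, Mnat1, Dmxl2 and Lin54 (0.854). The 10 most like the fatty acid profile were Sned1 (0.918), Radil, Srrm2, Elovl6 (0.890), Zfp382, Elovl4 (0.881), Fndc9, Paqr7, Ptch1 and Alpl (0.850), of which Elovl6 and Elovl4 are fatty acid elongases. Without ZT14 the r of Sned1 was 0.815, of Elovl6 0.789 and of Elovl4 0.765. They are the top of 16322 genes ranked by likeness.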

How the data were processed

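Skin RNA of 13 pools was measured on 1 Affymetrix whole-transcript array each. The authors deposited linear intensity per probe. The submitters' processing notes name PLIER 2.0 and Affymetrix Expression Console 1.1.1 without saying what each did. How arrays were scaled is not stated in these sources. Of 35557 probes, 21789 carry 1 symbol (RefSeq's mouse table holds 21766 of these symbols). Values were converted to log2(value + 16), and genes below the 25th percentile of probe means (7.61 log2) were dropped. limma 3.58.1 (R 4.3.3) fitted the 24 h wave, linear time and dark against light over all 16322 genes with Benjamini-Hochberg adjustment and calls under 0.05. It was tested on simulated data. Permutations numbered 100000. Promoters were searched with Python 3.11.15, and figures drawn with matplotlib 3.10.9.

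The genes, lists and tests were chosen with earlier results of these data known. Levels in light and dark are given for Hmgcs1, Sqle, Idi1, the Insig, Srebf and Scd genes, Fasn and Acaca, and for genes with the largest SD or the smallest p of each test. Each limma p-value rests on the spread among pools of different mice that the fit leaves over. With 1 pool at each time point, that spread mixes differences between mice, between arrays and between hours. Alternatives were other scalings, pseudocounts of 1 and 64, other filters, covariates and priors, all probes, and leaving out each pool.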

Additional observations from a re-analysis of the deposited data

Results flagged for a closer look

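Of 72 sets of light or dark pools examined for 1 pool apart from its group, 4 had one by Dixon's ratio, the gap to the nearest pool over the whole range. Chance sets apart about 1 in 20. In the light pools Hmgcs1 was low at ZT2, with 0.619 of the range as a gap. Idi1 was low in the same pool, with 0.605. In the light pools Fasn was low at ZT30, with 0.635, and in the dark pools Acacb was high at ZT14, with 0.757. These pools hold different mice and 1 array each, and whether the gap comes from the mice or the array was not tested.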

How the results depend on the processing

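Of 928 recomputed values for 41 results, 866 were labelled the same, 42 moved, 8 were weaker, 3 were stronger and 9 reversed. The same means that a test kept its direction and its side of the threshold, which includes tests not called in either run. For other values it means staying within a standard error of the main value, computed from the runs without each pool (jackknife). This can reach beyond the range of those runs. For counts it means staying within a set ratio of the main count, so a count labelled the same may have changed. The count of the 32 genes called was 0 in every alternative run for the wave, drift and dark against light. Among all genes, wave calls ranged from 2 to 30 beside 23 and dark against light calls from 0 to 4 beside 1. With arrays centred on their median, the cholesterol dark minus light median was -0.0499, the median SD 0.0978 over all 32 genes and 0.0935 over the cholesterol enzymes, the median r 0.472 among cholesterol enzymes and 0.196 between branches, and r was 0.341 for Hmgcs1 with Srebf2 and 0.0284 for Insig1 with Insig2. The cholesterol median amplitude was 0.0656 with muscle and adipocyte means as covariates and 0.0571 with the sebaceous mean. On residuals from the wave the median r between branches was 0.161 and that of Hmgcs1 with Insig1 -0.00749, and the latter was -0.00291 after quantile normalization. Day 1 alone gave a dark minus light median of 0.0465 for cholesterol and 0.211 for fatty acid enzymes, and day 2 alone -0.0379 and -0.0135, with 4 fatty acid enzymes above 0. Leaving out each pool gave 2 to 4 called pairs, and r of -0.261 to 0.285 for Hmgcs1 with Srebf2, -0.0128 to 0.394 for Scd1 with Scd2 and -0.0669 to 0.203 for Hmgcs1 with Insig1. For these the cause was not tested. Replicate numbers are accession order and pair no mice, and hours shared by the 2 days do not either. With day number replacing hours as the linear term, 0 of the 32 genes were called in the wave or dark against light test. Signal over background was not analysed here.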
